A study of Mus musculus with 4 samples.

Results

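Skin of mice treated with house dust mite (HDM) allergen was compared between Egr1 knockout and wild-type (WT) animals, 1 library a side. The members of the comparison were the genes with a deposited log2 value of 8 or more in at least one of the 2 HDM libraries, after symbols on more than 1 row of the tables had been dropped. They numbered 6918 of 23203 symbols on 1 row, of which 17188 had a read in either HDM library. A member was called higher or lower when its log2 values differed by 1 or more, which is 2-fold.

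The series holds 4 libraries from skin of adult C57BL/6 mice, 1 for each of 4 groups: WT naive, Egr1-/- naive, WT HDM and Egr1-/- HDM. In the HDM groups the ear and neck area was shaved, the barrier was broken with the detergent sodium dodecyl sulfate (SDS) on the shaved skin and both ears, and 100 mg of HDM cream followed, 2 times a week for 3 weeks. The treatment label of both naive groups is SDS alone. The Egr1-/- mice were made on a C57BL6 background, the offspring were genotyped by PCR, and no cell type or driver is named for the deletion. The carrier of the naive groups and the source of the HDM extract are not named. No source used here says whether a library came from ear or from neck, or from how many mice. The naive libraries appear here only to place the values of the HDM pair.

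EGR1 is a zinc finger transcription factor of the immediate early class: its gene is switched on within minutes by growth factors, wounding and stress, and its protein binds GC-rich sites in promoters. In skin it is made by keratinocytes, fibroblasts and immune cells. The title of the series places the study in atopic dermatitis and asks about Egr1, the neurotrophic factor artemin and sensory nerve fibres of the epidermis.

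The recovered depth was 9444352 and 10130899 reads in the HDM pair, and 9610892 and 9951401 in the naive pair, WT first. Keratinocyte and fibroblast markers were present in all 4 libraries, as the tissue label requires: Krt5 had 16875 to 86161 reads and Col1a1 16575 to 174480. Both HDM libraries carried Xist (2195 and 2433 reads, WT first) and 1 read each of the Y-linked Ddx3y, whereas the naive libraries had 10 and 40 reads of Xist and 1925 and 2431 of Ddx3y. The HDM pair was thus matched in sex-linked transcripts, and the HDM libraries differed from the naive ones in them. In KO-labelled naive, 156 members stood at 0 reads, which limits every naive difference given below, and the largest differences there can rest on such zeros.

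With 1 library in each group there is no test. A difference compares those libraries, not the genotypes, and the 95% intervals beside ratios cover counting error only. In bulk skin, fewer cells of a type and less RNA per cell cannot be told apart.

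Egr1 itself was higher, not lower, in the library labelled Egr1 knockout. Egr1 had 1966 and 3159 reads in the naive libraries and 1174 and 3494 in the HDM libraries, WT first in each pair. Where a gene is given with 4 values below, they are its reads in WT naive, KO-labelled naive, WT HDM and KO-labelled HDM, and 2 values are those of the HDM pair, WT first. Under HDM the KO-labelled library held 2.59 times the WT value (95% counting interval 2.43 to 2.77), a log2 difference of 1.37. Both KO-labelled libraries lay above both WT libraries. Reads of a 3′ kit come from the end of the transcript, and the labels do not say which part of Egr1 (chromosome 18, 34861207 to 34864956, GRCm38.p6) was deleted, so these reads check no label if they lie outside that part. The library is called KO-labelled throughout for this reason.

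Of the 6918 members, 175 were higher in KO-labelled HDM by 2-fold or more, which is 2.53% of those compared. A further 243 were lower, which is 3.51%. The other 6500 members (94.0%) lay within 2-fold. The median difference of all members was 0.0, and the 5th and 95th percentiles were -0.84 and 0.72 on the log2 scale. The far end was one-sided: 47 members were lower by 4-fold and 21 higher, 17 were lower by 8-fold and 1 higher, and 12 were lower by 16-fold and 0 higher. The counting interval lay wholly past 2-fold for 110 of the higher and 169 of the lower members.

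The split between higher and lower depended on the scaling. Of the calls on the deposited scale, 41.9% were higher. When the recovered reads were instead scaled to equal totals, 218 members were higher and 192 lower, so that 53.2% of calls were higher. That scaling moved the median of all members to 0.11. The ribosomal precursor Rn45s took 4.81% of the WT HDM reads and 2.65% of the KO-labelled HDM reads. With Rn45s and the 100 most abundant genes left out of the totals, 186 members were higher and 222 lower. Then 45.6% of calls were higher, and the median of all members was 0.035.

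**Figure D1:**
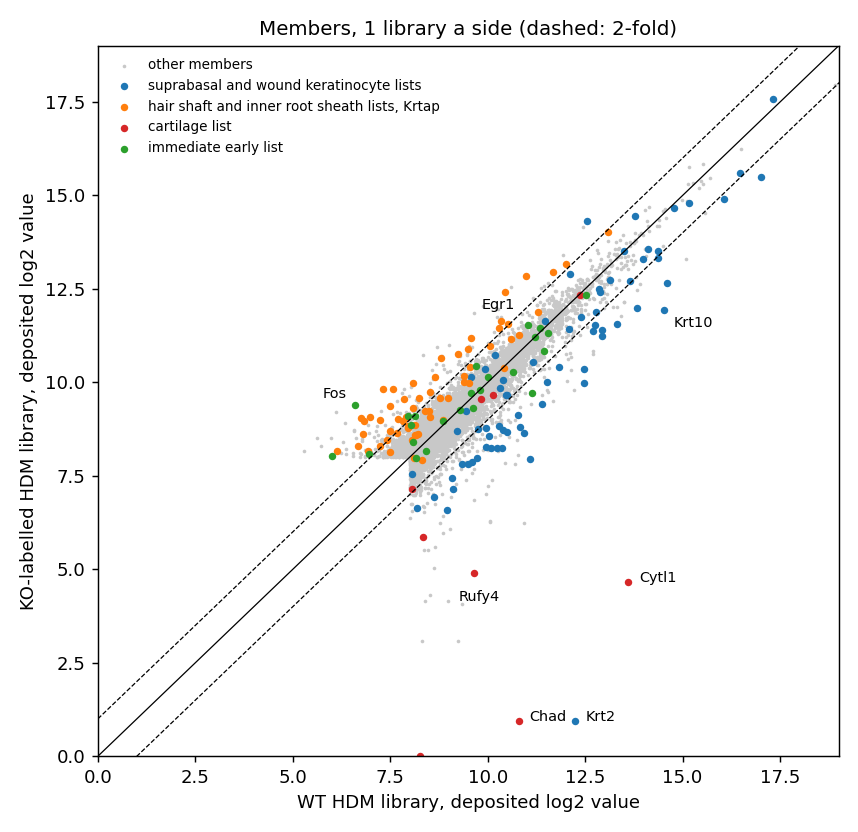
Deposited log2 values of the 6918 members in the WT HDM library (horizontal axis) and the KO-labelled HDM library (vertical axis), 1 point a gene; the solid line marks equal values and the dashed lines 2-fold. Most points lie between the dashed lines, and Krt2, Chad and Cytl1 stand far below them.

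The 4 lowest differences of the comparison belonged to Krt2, Chad, Cytl1 and 3110079O15Rik. Krt2 is the keratin of the upper spinous and granular layers, which in the mouse is known from ear, tail and sole rather than from haired trunk skin. Krt2 (chromosome 15, 101810689 to 101818956) had 61036 and 93566 reads in the naive libraries and 4493 and 1 in the HDM libraries. It was abundant in both naive libraries, lower in WT HDM, and all but missing from KO-labelled HDM. The ratio of WT HDM to KO-labelled HDM was 5159, with a counting interval from 925 to 203818 that is wide because it rests on 1 read. The log2 difference was -11.3.

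Cartilage is known in this region as the elastic plate of the external ear. Its cells make aggrecan (Acan) and collagens II, IX and XI, and they carry chondroadherin (Chad), a matrix protein that binds cells to collagen, and cytokine-like 1 (Cytl1), a secreted protein. Of 32 cartilage genes listed, 27 had a read in at least one HDM library, and 25 of these had a lower value in KO-labelled HDM, 17 of them by 2-fold or more. None was higher by 2-fold. The counting interval lay below 1 for 21. Among all 6918 members it excluded 1, in either direction, for 68.5%. Only 9 of the cartilage genes passed the filter at log2 8, of which 5 were lower and 0 higher, with a median of -2.47. The median was -3.34 over the 27 genes with a read, and -0.37 over the 4 whose mean of both libraries reached log2 8. Those that pass do so through a library in which they are high.

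Chad had 4804 and 2765 reads in the naive libraries and 1651 and 1 under HDM. Cytl1 had 17250, 17123, 11606 and 26 reads in the same order. For Acan the values were 2065, 1916, 742 and 31. In each of the 3, the KO-labelled HDM library was the low one and the other 3 libraries were high. The ratio of WT HDM to KO-labelled HDM was 513 for Cytl1 (350 to 785) and 27.5 for Acan (19.2 to 40.7), and 1896 for Chad, again from 1 read (340 to 74923).

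The starts of these genes are shown to give the sequence behind the names that separate the libraries most, together with the start of Krt71, an inner root sheath keratin that was higher, and of Fos, an immediate early gene that was higher. Each run is the 150 bases before the transcription start, 5′ to 3′ on the gene's strand, from RefSeq on GRCm38.p6. Capitals mark matches to GCGNGGGCG (the EGR1 consensus) or TGACGT (a cyclic AMP response element half-site) on either strand, or to TATAAA (the TATA box) on the gene's own strand. The CArG box, the site of serum response factor, was searched on both strands as well and matched none of the 5. Only genes whose listed start is the outer edge of the annotated gene are shown. The Chad gene lies within the span of Acsf2, which had 33 and 32 reads under HDM.
Chad, chr11:94564897-94565046, plus strand: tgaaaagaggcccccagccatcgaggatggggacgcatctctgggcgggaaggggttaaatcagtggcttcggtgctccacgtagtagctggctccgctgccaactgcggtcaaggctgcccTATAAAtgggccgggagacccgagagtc
Cytl1, chr5:37735369-37735518, plus strand: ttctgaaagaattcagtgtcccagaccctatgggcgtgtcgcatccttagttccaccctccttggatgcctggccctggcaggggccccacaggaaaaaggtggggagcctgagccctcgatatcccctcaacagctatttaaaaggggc
Acan, chr7:79053076-79053225, plus strand: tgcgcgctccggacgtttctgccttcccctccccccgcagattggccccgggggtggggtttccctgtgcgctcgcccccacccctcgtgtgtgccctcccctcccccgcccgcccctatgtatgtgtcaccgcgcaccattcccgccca
Krt71, chr15:101743098-101743247, minus strand: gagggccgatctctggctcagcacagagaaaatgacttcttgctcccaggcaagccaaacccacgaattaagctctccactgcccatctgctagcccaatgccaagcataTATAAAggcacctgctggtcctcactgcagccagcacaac
Fos, chr12:85473740-85473889, plus strand: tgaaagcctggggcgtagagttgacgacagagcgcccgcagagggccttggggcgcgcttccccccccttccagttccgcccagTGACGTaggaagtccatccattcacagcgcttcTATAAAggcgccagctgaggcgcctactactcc

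The TATA box letters begin at -28 in Chad, -40 in Krt71 and -33 in Fos, counted from the start, and TGACGT begins at -66 in Fos. None of the 5 holds the EGR1 letters within 250 bases of its start. Among other genes described here, the EGR1 letters begin at -50 in Fosb and at -60 in Nr4a1. Krt2, Krt10, Artn, Egr2 (at each of its listed starts), Dusp1 and Nppb were scanned in the same way and hold none. Of 27025 mouse genes, 5.33% hold the EGR1 letters in the 250 bases before at least 1 of their starts. Counted in the same way, 7.29% hold TGACGT, 8.94% TATAAA and 1.62% a CArG box. Motif shares of higher and lower members are not compared here. A listed promoter was present for 129 of the 175 higher members (73.7%) and 190 of the 243 lower members (78.2%). Of the 6500 members within 2-fold, 5230 (80.5%) had one, and 11.1% of these hold the EGR1 letters. Genes without a listed promoter could not be scanned.

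A rule on reads in all 4 libraries, chosen after the values were seen, was used to list genes missing from KO-labelled HDM alone. It asked for at most 3 reads there and at least 50 in WT HDM and in each naive library, and found 8 genes, whose presence in naive skin is thus set by the rule. They were Krt2, Chad, Col9a2, Col10a1, 3110079O15Rik, Mfi2, Msmp and Tlx1. Of these, 3110079O15Rik, named Snorc in newer annotation, encodes a membrane proteoglycan of chondrocytes. It had 914, 802, 285 and 0 reads in the order used above, so that WT HDM was at least 109-fold higher, with 0 taken to allow up to 3 reads. Tlx1, a homeobox transcription factor, had 437, 335, 234 and 0 reads, at least 89.6-fold. Mfi2, melanotransferrin, had 1151, 731, 216 and 0 reads, at least 82.7-fold. The reverse pattern, 50 or more reads in KO-labelled HDM and 3 or fewer in each other library, was met by 1 gene, the hair gene Krtap20-2, with 0, 0, 1 and 86 reads.

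Low values of cartilage genes in KO-labelled HDM were graded by gene. Col2a1, the main collagen of cartilage, had 188, 16, 143 and 0 reads. Col9a1 had 346, 475, 38 and 0, and Col9a3 1059, 1421, 132 and 14. Each of these collagens was lowest in KO-labelled HDM, and Col2a1 was also low in KO-labelled naive. Not all listed genes followed. Sox9, the master regulator of chondrocytes, which hair follicle cells also make, had 6366, 3433, 4910 and 5518 reads, a log2 difference of -0.03 under HDM. Prg4, lubricin, had 543, 672, 1038 and 858 reads, and Cilp, a cartilage intermediate layer protein, 1899, 2970, 840 and 797. Neither differed by 2-fold under HDM.

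Summed over the list, cartilage genes took 4369 and 4098 RPM (recovered reads scaled to a library of 1000000) in the naive libraries, and 2433 and 777 in the HDM libraries. Most of what remained in the last library was Sox9. The 15 lowest members, chosen by their difference, also held S100b, Frzb and Myoc. S100b, a calcium-binding protein of chondrocytes, Schwann cells and fat cells, had 4804, 8110, 994 and 81 reads. Frzb, a Wnt antagonist first known from cartilage, had 5398, 4203, 596 and 17. Myoc, myocilin, had 9091, 17242, 995 and 82. The Schwann cell list, which holds S100b, had its other 8 members within 2-fold.

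HOX genes record position along the body axis, and adult skin cells keep that record. Of 39 Hox genes in the tables, 23 had a read in either HDM library, and 20 of these were higher and 3 lower in KO-labelled HDM. The counting interval excluded 1 in 11 of the higher and 2 of the lower. Among all 6918 members it excluded 1 in 68.5%, so such intervals were common at this depth. Only Hoxc13 and Hoxd8 passed the filter at log2 8. Over all Hox genes the sums were 82.8 and 87.8 RPM in the naive libraries, and 99.7 and 220 in the HDM libraries. The first 3 libraries lay close together, and KO-labelled HDM stood above them.

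The HoxC cluster had the largest ratio of sums under HDM among the 4 clusters, with 6.45, 15.5, 27.3 and 87.9 RPM in the same order. Hoxc8, which marks the thoracic region in the embryo, had 0, 0, 4 and 111 reads, a ratio of 24.2 under HDM (9.18 to 90.3). Hoxc6 had 0, 37, 15 and 129 reads, a ratio of 7.49 (4.38 to 13.8). Hoxa5 had 6, 0, 33 and 187 reads, a ratio of 4.94 (3.39 to 7.38). Each of these 3 was highest in KO-labelled HDM. Hoxc13, which drives hair keratin genes, had 53, 117, 192 and 549 reads and so belongs also to the hair genes described below. The anterior genes Hoxa2 and Hoxa3 went the other way, with 42 and 28 reads of Hoxa2 and 62 and 43 of Hoxa3, WT HDM first. HoxA as a whole had 35 RPM in WT naive and 32.8 in KO-labelled HDM, so it was not above all other libraries.

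Of the 9 members of the list of other transcription factors that mark regions of the body, 7 lay within 2-fold, 1 was higher and 1 lower, with a median of 0.19. Meis2, a partner of HOX proteins, was the lower one, with 666, 648, 377 and 191 reads. Irx4 was the higher one, with 106 and 278 reads under HDM. Among genes of the list below the filter, the following were named for their differences: Emx2 had 174, 186, 98 and 19 reads, Shox2, a limb and jaw factor, 94, 0, 43 and 179, and En1 0, 81, 9 and 59. These 3 do not describe the list as a whole.

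**Figure D2:**
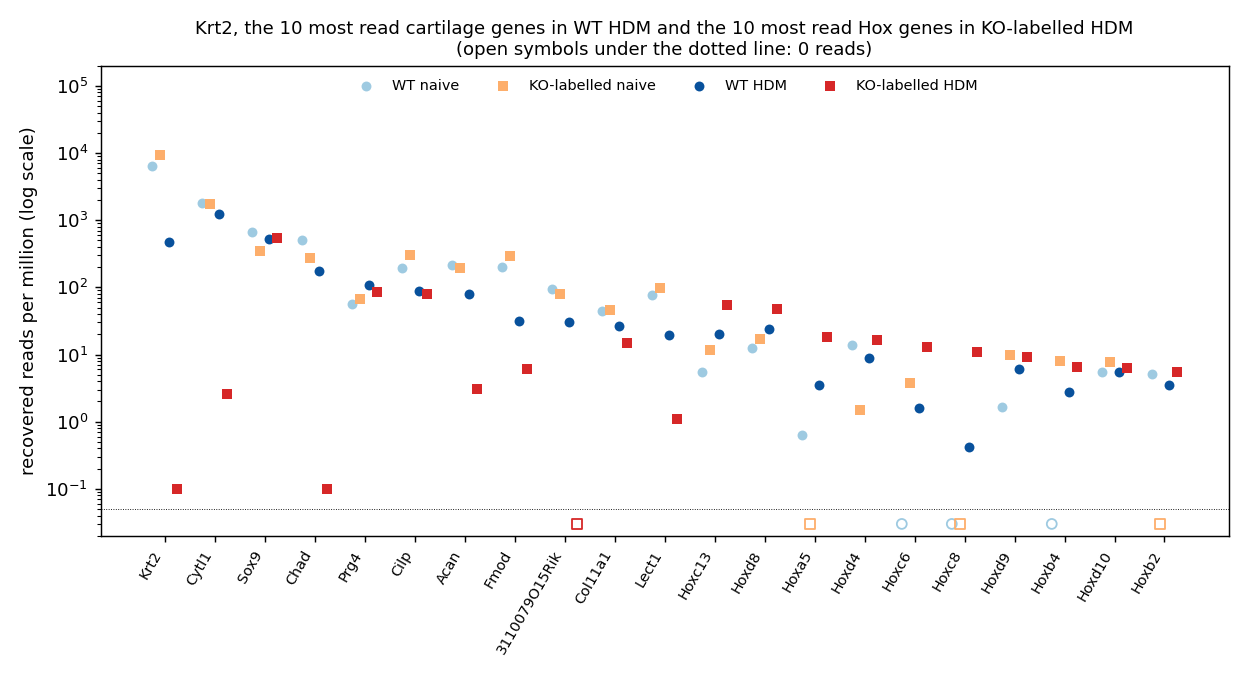
Recovered RPM on a log axis for Krt2, the 10 cartilage genes with the most reads in WT HDM and the 10 Hox genes with the most reads in KO-labelled HDM, 1 symbol a library, with open symbols under the dotted line for 0 reads. Krt2, Cytl1, Chad and Acan are high in 3 libraries and low in KO-labelled HDM; Hoxc8, Hoxc6 and Hoxa5 are highest in KO-labelled HDM.

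Cartilage, Krt2 and HOX transcripts thus moved with the comparison between the HDM libraries: cartilage sums stood at 2433 against 777 RPM, Krt2 at 4493 against 1 read, and Hox sums at 99.7 against 220 RPM, WT first. The naive sums did not split in this way: cartilage sums (4369 and 4098) and Hox sums (82.8 and 87.8) were close there. Single Hox clusters and genes did differ in the naive pair, in both directions. HoxC had 6.45 and 15.5 RPM and HoxA 35 and 20.2, WT first. Hoxb4 had 0 and 81 reads there, and Hoxd4 133 and 15. The body site of each library is not given, so with 1 library a side body site and genotype label cannot be told apart. This holds also for the epidermal, hair, sebaceous, fat and pigment genes described below. The part of cartilage, Krt2 and HOX transcripts in the other differences of this comparison was not tested. With the hair, cartilage, muscle and HOX lists and the Krtap genes left out, 140 members were higher and 237 lower, of 6821. Krt2 and S100b stayed in this count, and it does not test that part.

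The suprabasal and granular layers of the epidermis gave the largest number of lower members among the lists. Here keratinocytes leave the basal layer, switch to Krt1 and Krt10, and then build the cornified envelope from loricrin and the late cornified envelope proteins. Of 34 members of this list, 22 were lower and 1 higher, with a median of -1.58 against 0.0 for all members. The counts of this list and of those below stand beside shares of 2.53% higher and 3.51% lower among all members. Some of the smaller counts are near these shares. Krt10 had 11154 and 9316 reads in naive skin, and 21992 and 4138 under HDM. Krt1, its partner, had 942, 497, 22878 and 6860. Lor, loricrin, had 73598, 66852, 13500 and 4368. The WT HDM library was above KO-labelled HDM in each, by 6.1 times for Krt10 (5.9 to 6.31) and 3.83 times for Krt1 (3.73 to 3.93). For Krt1 the KO-labelled HDM library nevertheless lay above both naive ones, whereas for Krt10 it lay below all 3.

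The Lce1 genes encode envelope proteins of normal epidermis, and all 12 of those that were members were lower, by 1.48 to 2.37 on the log2 scale. Lce1h had 1006, 1332, 459 and 101 reads, and Lce1a1 24077, 13565, 7279 and 2565. Summed, Lce1 genes took 5114 and 3541 RPM in the naive libraries, and 1785 and 563 in the HDM libraries. The order of the HDM pair was the same in every one of them. Hrnr, hornerin, which is related to filaggrin, had 6270, 9239, 5244 and 1386 reads. Flg2 and Ivl, involucrin, were lower by 0.52 and 0.48 on the log2 scale and did not reach 2-fold.

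The wound and hyperproliferation list holds genes that keratinocytes of inflamed or healing skin switch on. Of its 36 members, 18 were lower and 0 higher, with a median of -0.95. Lce3 and Sprr2 genes led them. All 6 Lce3 genes, which are induced by barrier damage, were lower by 1.53 to 3.11. Lce3b had 0, 0, 2003 and 265 reads, a ratio of 8.68 (7.63 to 9.9). Of 9 Sprr2 genes, the small proline-rich proteins of the envelope, 7 were lower and 2 within 2-fold. Sprr2d had 2, 0, 9519 and 3191 reads. The Lce3 genes had at most 9 reads in a naive library and were present in both HDM libraries, less in the KO-labelled one. Members of the Lce and Sprr2 families are near-identical copies, and no source used here says how reads that fit several copies were counted, so values of single members are uncertain.

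The stress keratins, which the same state is best known for, lay within 2-fold. Krt6a had 1339, 324, 152004 and 209442 reads, and Krt6b 37, 21, 34295 and 30135. Krt16 had 37, 112, 19629 and 12547, and Krt17 2026, 1058, 12977 and 23676. Both HDM libraries were far above both naive ones in Krt6a, Krt6b and Krt16. Under HDM the log2 differences were 0.26, -0.39, -0.85 and 0.67 in that order. Cell cycle genes also lay within 2-fold for 32 of 33 members, with a median of -0.03. Mki67, which marks cycling cells, had 1174 and 1323 reads under HDM.

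Basal keratinocyte genes were not among the lower members. Of 17 members, 2 were higher and 0 lower, with a median of 0.16. Krt5 had 86161 and 82048 reads under HDM, and Krt14 36833 and 43937. Krt15, a keratin of the basal layer and of the follicle bulge, had 1200 and 2816, and Lama3, a laminin chain of the basement membrane, 132 and 484. The last of these was the highest difference of the list, 1.67 on the log2 scale.

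Of 22 members among the proteases and inhibitors that govern shedding, 7 were lower and 1 higher, with a median of -0.60. Klk13, a kallikrein protease, had 2, 0, 1299 and 243 reads. Serpinb12 had 75, 279, 1136 and 303. Klk9 had 462, 419, 4160 and 1371. Cst6, an inhibitor of cathepsins, was the exception, with 2463 and 6260 reads under HDM.

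Genes of the barrier lipids went both ways. Of 21 members, 5 were lower and 4 higher. The lipoxygenase Alox12b, which processes ceramides of the cornified envelope, had 923 and 340 reads under HDM, and its partner Aloxe3 had 1153 and 527. Fa2h, which hydroxylates fatty acids, had 748 and 3970, and the elongase Elovl3, known from sebaceous gland and brown fat, 874 and 4525. Elovl6 had 1208 and 3671. Alox12b and Aloxe3 act in the granular layer, and Fa2h, Elovl3 and Elovl6 are also known from sebaceous glands. Alox8, an inducible epidermal lipoxygenase outside this list, had 10, 0, 1805 and 79 reads and was among the 15 lowest members.

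Lower members were gathered on chromosome 3. The epidermal differentiation complex holds the Lce, Sprr, S100 and fused S100 genes side by side. Between 92080271 and 93564645 on chromosome 3 (GRCm38.p6), 43 members lay, of which 32 were lower and 3 higher. On chromosome 3 as a whole 11.5% of 393 members were lower, against 3.51% of all members. The window was chosen after the values had been seen.

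**Figure D3:**
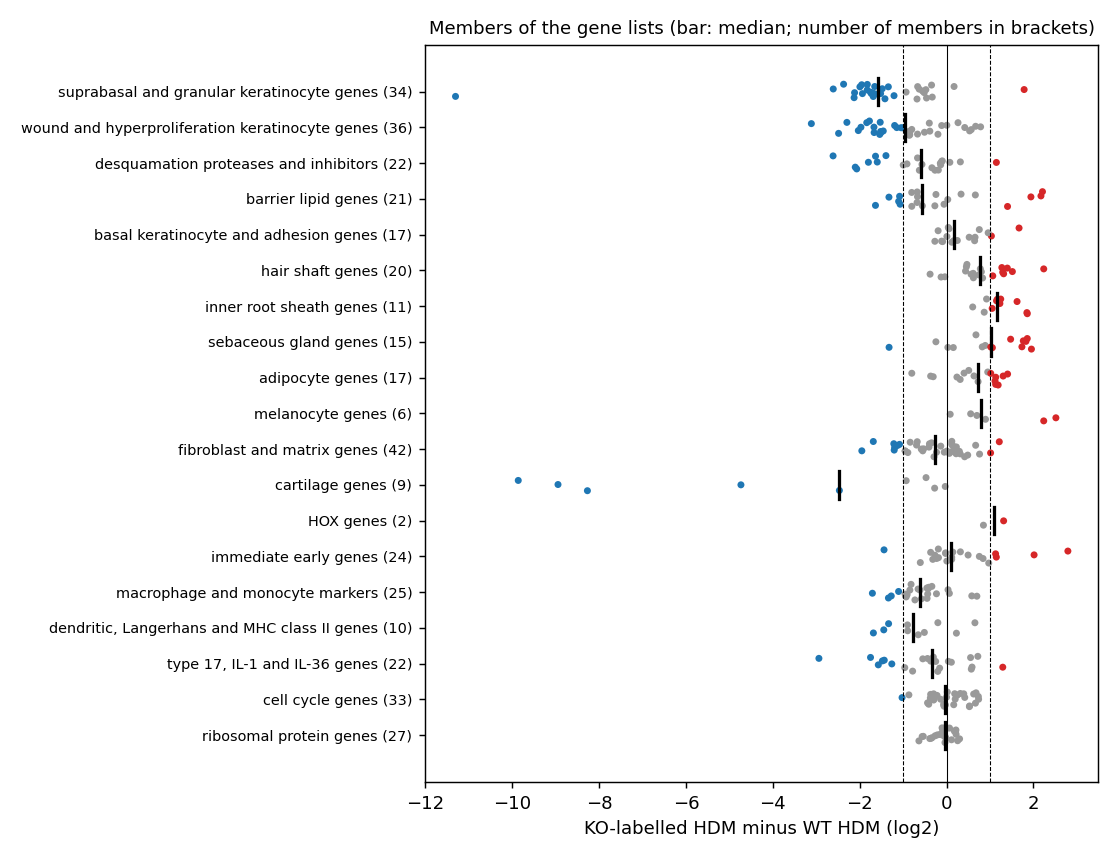
Difference between KO-labelled HDM and WT HDM (log2) for the members of 19 gene lists, 1 point a gene, red where 2-fold higher and blue where 2-fold lower, with a bar at the median and the number of members in brackets. The suprabasal, wound and cartilage lists lie to the left, the hair, sebaceous and adipocyte lists to the right, and the ribosomal and cell cycle lists around 0.

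Hair follicle genes made up the largest group of higher members among those described. A growing follicle makes the hair shaft, built from hair keratins and keratin-associated proteins (Krtap), and around it the inner root sheath. Of 20 hair shaft members, 7 were higher and 0 lower, with a median of 0.76, and of 11 inner root sheath members, 8 were higher and 0 lower, with a median of 1.17. Of 30 Krtap members, 19 were higher and 0 lower, with a median of 1.22. The Krtap family was set apart after its values had been seen.

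Krt71, an inner root sheath keratin, had 11 and 0 reads in naive skin, and 3857 and 9830 under HDM. Krt27, another of that sheath, had 19, 0, 708 and 2505, and Krt85, a keratin of the shaft, 37, 0, 1200 and 3375. All 3 were near absent from naive skin and highest in KO-labelled HDM, by 2.22 times for Krt71 (2.14 to 2.3) and 3.08 times for Krt27 (2.83 to 3.35). Krtap6-5 had 9, 0, 147 and 967 reads, and Krtap8-1 9, 0, 1286 and 5869. Krtap genes summed to 31.4 and 90 RPM in naive skin, and to 1103 and 2849 under HDM. Krt31, a shaft keratin, did not differ by 2-fold, with 1280 and 1429 reads. Between 88646824 and 90145600 on chromosome 16, where Krtap genes lie side by side, 16 of 19 members were higher and 0 lower. On chromosome 16 as a whole 7.5% of 240 members were higher, against 2.53% of all members. This window was also chosen after the values had been seen, and it holds Krtap members already counted above.

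Stem cell and signalling genes of the follicle lay mostly within 2-fold. None of 8 members of the bulge and outer root sheath list reached 2-fold, although 6 had differences above 0 and the median was 0.76. Lgr5, a stem cell receptor, had 289 and 586 reads under HDM. Corin, a protease of the dermal papilla, went against the follicle genes, with 1993, 1129, 426 and 66 reads. Prlr, the prolactin receptor, had 398, 437, 91 and 389, and so was low only in WT HDM.

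Many sebaceous gland and fat cell genes were higher in the same library as the hair genes. Of 15 sebaceous members, 8 were higher and 1 lower, with a median of 1.02. Krt79 is also on the inner root sheath list and was counted as higher in both. Scd1, which desaturates fatty acids, had 67818, 83918, 5140 and 19635 reads. Plin2, a lipid droplet protein, had 4567, 3938, 1430 and 6361, and Krt79, a keratin of the gland's duct, 3478, 3234, 1889 and 7858. WT HDM was the lowest of the 4 libraries in all 3. Of 17 adipocyte members, 7 were higher and 0 lower, with a median of 0.73. Fabp4, the fatty acid carrier of fat cells, had 5615, 27759, 2762 and 6869 reads, and Cidec, of the lipid droplet, 1732, 3286, 584 and 1776. Adipoq, adiponectin, lay within 2-fold with 598 and 853 reads. Cholesterol synthesis genes had no common direction, with 2 higher and 1 lower of 22 members. Mvd had 784 and 447 reads under HDM.

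Among pigment cell genes, Tyrp1 and Dct were higher. Melanocytes pass pigment to the growing hair. Of 6 members, 2 were higher and 0 lower. Tyrp1, an enzyme of melanin synthesis, had 60, 59, 58 and 386 reads, a ratio of 5.8 under HDM (4.39 to 7.78). Dct, another such enzyme, had 780, 1407, 386 and 2092 reads, a ratio of 4.72 (4.23 to 5.27). For Tyrp1 the first 3 libraries were alike and KO-labelled HDM stood alone. Mitf, the regulator of the lineage, had 348 and 587 reads and lay within 2-fold.

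Among immediate early genes, a small set was higher in KO-labelled HDM. These genes respond within minutes to stimuli. Of 24 members, 4 were higher and 1 lower, with a median of 0.10, so the list as a whole stayed near 0. Fos, a subunit of the AP-1 factor, had 537 and 1628 reads in naive skin, and 89 and 714 under HDM. Fosb, its relative and not a member, had 477, 400, 4 and 123. Nr4a1, an orphan nuclear receptor, had 268, 440, 59 and 277. All 3 were lowest in WT HDM. The ratios under HDM were 6.99 for Fos (5.6 to 8.81), 26.8 for Fosb (10.2 to 99.8) and 4.09 for Nr4a1 (3.08 to 5.51).

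The others that were higher were Dusp1, a phosphatase that ends MAP kinase signals, with 231 and 588 reads, and Cyr61, a matricellular protein, with 115 and 290. Socs3, a brake on cytokine signals, was the one that was lower, with 251, 173, 2107 and 891 reads. Jun family genes and Ier3 appear in the plot of immediate early genes and lie close together in the HDM pair.

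Within the EGR family, Egr1 was the 1 of 5 members that reached 2-fold. Egr2 had 409, 144, 389 and 808 reads, a ratio of 1.81 under HDM (1.6 to 2.05). Egr3 had 319, 501, 581 and 547. Nab2, a corepressor that EGR factors induce and that binds them, had 268, 128, 560 and 488, and Nab1 892, 802, 1155 and 900. Egr3, Nab1 and Nab2 were lower by 0.29, 0.56 and 0.40 on the log2 scale.

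**Figure D4:**
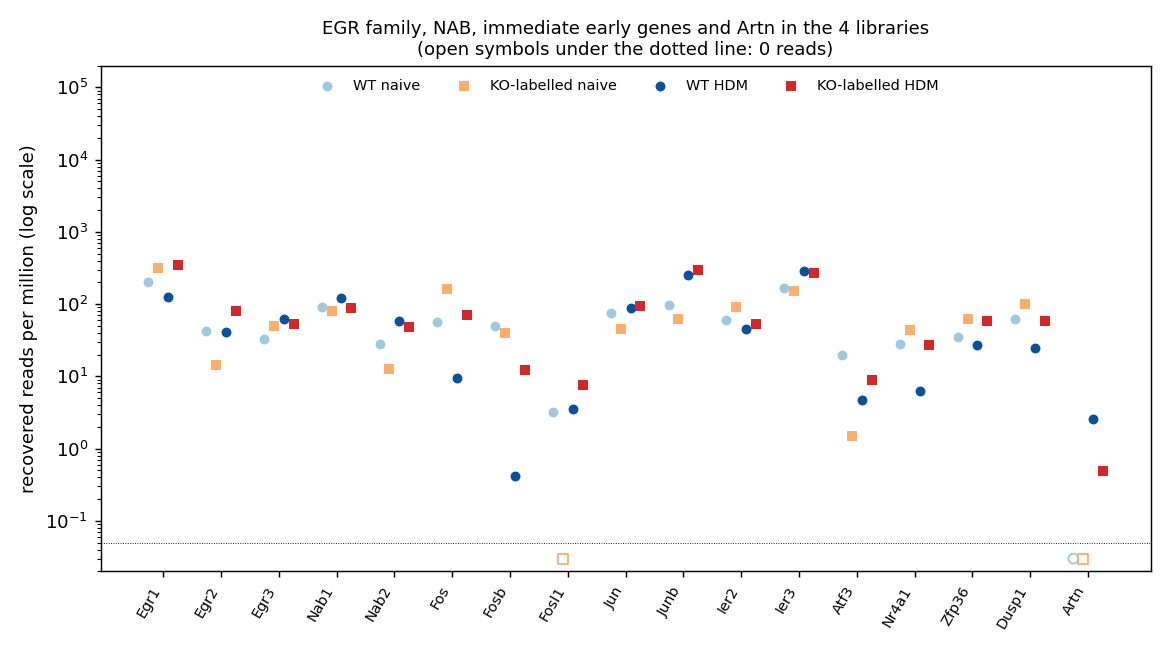
Recovered RPM on a log axis for the EGR family, the NAB corepressors, immediate early genes and Artn, 1 symbol a library, with open symbols under the dotted line for 0 reads. Egr1 is higher in both KO-labelled libraries than in both WT libraries; Fos, Fosb and Nr4a1 are lowest in WT HDM; Artn has reads only in the HDM libraries.

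Artemin, the growth factor named in the title of the series, acts on sensory neurons through GFRA3 and RET. Artn had 0, 0, 24 and 5 reads, far below the filter. WT HDM was 5.51 times KO-labelled HDM, and the counting interval ran from 2.06 to 18.5. The direction is that of a lower value in the KO-labelled library, on 29 reads in all. Gfra3, the receptor, had 1, 0, 2 and 31 reads, higher in KO-labelled HDM by 13.5 times (3.43 to 116). Ret had 36 and 51 reads in the HDM pair. Of 18 genes in this list, 3 were members (Nrtn, Gfra1 and Sort1), and none of them reached 2-fold. Nppb, a peptide made by itch neurons and by other cells, had 2, 0, 35 and 307 reads and was the second highest member.

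Most inflammatory genes that differed were lower, with Cxcl2 as an exception. S100a8 and S100a9 encode calprotectin, which neutrophils and stressed keratinocytes make. S100a8 had 179, 0, 121597 and 48718 reads, and S100a9 325, 0, 63029 and 32681. Both were high in both HDM libraries and lower in the KO-labelled one, by a log2 difference of -1.52 and -1.15. Of 22 members of the type 17, IL-1 and IL-36 list, 6 were lower and 1 higher, with a median of -0.34. Defb3, a beta-defensin, had 1, 0, 928 and 138 reads, the IL-36 alpha gene Il1f6 18, 40, 694 and 236, and the IL-1 receptor antagonist Il1rn 198, 101, 1683 and 693. Cxcl2, a neutrophil chemokine, was higher, with 110 and 311 reads, and Il1b lay within 2-fold with 585 and 997.

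Macrophage and antigen-presenting cell genes that differed were lower. Of 25 macrophage and monocyte members, 4 were lower and 0 higher, with a median of -0.61. Ccr2, the receptor that brings monocytes into tissue, had 249, 399, 941 and 330 reads, and Pf4 144, 716, 722 and 327. Of 10 members of the dendritic, Langerhans and MHC class II list, 3 were lower and 0 higher. H2-Eb1, an MHC class II chain, had 1085, 1000, 2052 and 732 reads. The pan-leukocyte gene Ptprc, however, had 478 and 516 reads under HDM. No T cell list member reached 2-fold, and no B cell or eosinophil marker passed the filter. Of 10 type 2 and itch members, 1 was higher and 1 lower: F2rl1, a protease receptor of keratinocytes, had 135 and 414 reads, and Arg1, arginase, 425 and 234. Il33, an alarmin, had 780 and 487 reads and lay within 2-fold.

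Haemoglobin transcripts, which come from blood in the sample, were also lower: Hba-a1 had 45190 and 25446 reads under HDM, and 3 of 6 erythrocyte members were lower and 0 higher. Hbb-bs (10717 and 4844 reads) and Hbb-b1 (10636 and 4814), both among the lower ones, had nearly the same values. So had Hbb-bt and Hbb-b2, and the same reads may be counted under both names of such a pair. The part of blood content in the differences of immune genes was not tested.

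In the dermis most genes lay within 2-fold. Of 42 fibroblast and matrix members, 7 were lower and 2 higher, with a median of -0.26. Col1a1, the main dermal collagen, had 16575 and 19881 reads. Ctgf, a matricellular protein induced by TGF-beta and by mechanical strain, had 6522, 7381, 6224 and 1848, and Eln, elastin, 5005, 8650, 1531 and 545. KO-labelled HDM was the lowest library for Ctgf and Eln. Muscle genes lay within 2-fold for 24 of 26 members, with 1 higher (Mybpc2, of fast fibres, 74 and 515 reads) and 1 lower (Tnnt1, of slow fibres, 308 and 48). Wif1, a secreted Wnt inhibitor, had 11436, 7016, 1275 and 455 reads. Of 19 antioxidant members, 3 were lower, among them the cystine carrier Slc7a11 with 1178 and 407 reads.

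Lists for general cell functions lay near 0. All 27 ribosomal protein members, all 26 glycolysis and hypoxia members, all 21 members of the mitochondrial list, all 10 clock genes and all 9 interferon-stimulated members lay within 2-fold. Their medians were -0.05, -0.09, 0.13, -0.04 and 0.26, in that order, some of them smaller than the shift of 0.11 between scalings. Many listed interferon-stimulated genes lay below the filter, where differences went both ways. Under HDM Mx1 had 34 and 0 reads and Ifi47 220 and 123, whereas Oas1a had 18 and 67 and Bst2 73 and 197.

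Other members at either end of the comparison stood outside the gene lists; their reads follow in the order WT naive, KO-labelled naive, WT HDM and KO-labelled HDM. Gm13178 had the highest difference of all members, 3.10, with 386, 486, 63 and 627 reads. Nnat, neuronatin, had 1391, 2034, 300 and 1822 reads, a difference of 2.40. Both were lowest in WT HDM, with the other 3 libraries well above it. At the low end, 1500015O10Rik had 864, 961, 555 and 8 reads, a difference of -6.14. Ppp1r1b, an inhibitor of protein phosphatase 1, had 1295, 1095, 292 and 8 reads, a difference of -5.22. These were lowest in KO-labelled HDM, as was Slurp1, a secreted protein of keratinocytes, with 556, 863, 337 and 20 reads.

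The same genes were compared between the naive libraries, which share no library with the HDM pair. There, 498 of the 6918 members were higher in the KO-labelled library (7.2%) and 1030 lower (14.9%). This spread was wider than under HDM: the SD of the log2 differences was 1.23 against 0.60. Fewer genes had a read in KO-labelled naive (12880) than in WT naive (15547) or the HDM pair (16536 and 16200, WT first). The recovered depth of KO-labelled naive, 9951401 reads, lay between those of the HDM pair. The part of this lower detection in the naive spread and in the naive counts was not tested. Of the 243 members lower under HDM, 62 were also lower in the naive pair, which is 25.5% of the first set and 6.02% of the second, and 26 were higher there. Of the 175 members higher under HDM, 20 were also higher in the naive pair (11.4% of the first set and 4.02% of the second), and 50 were lower there. Of the 62 lower in both, 30 stood at 0 reads in KO-labelled naive. Across all 6918 members, which come from the same 4 libraries, the correlation of the differences was r = -0.001.

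Krt2, Chad, Cytl1 and Acan, at the low end under HDM, had naive differences of 0.44, -0.97, -0.19 and -0.28, within 2-fold. Fos was higher in both pairs, by 2.79 under HDM and 1.42 in naive skin. Of the 12 Lce1 members, 5 were lower by 2-fold or more in the naive pair and 7 lay within 2-fold, with naive differences from -1.52 to 0.23 and a median of -0.77. Fabp4 was higher in both, by 1.12 and 2.13. Whether the genotype difference itself differs between the pairs cannot be tested with 1 library a group.

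**Figure D5:**
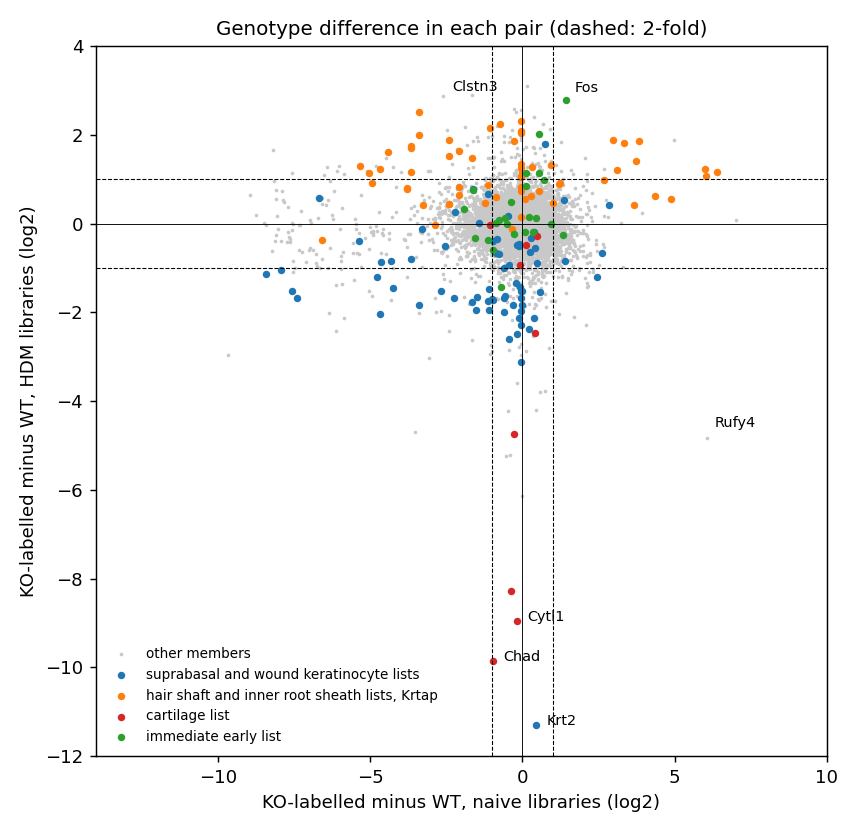
Difference between KO-labelled and WT libraries (log2) in the naive pair (horizontal axis) and in the HDM pair (vertical axis) for the 6918 members, 1 point a gene, with dashed lines at 2-fold. Points do not line up along a diagonal, Krt2, Chad and Cytl1 sit near 0 on the horizontal axis, and Rufy4 lies low on the right.

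At the limits of the rules, Chpf, Vipas39 and Cdca7l entered with a highest value of 8.002, and Smyd3, Ascc3 and Cant1 stayed out at 7.997. Rnf146 was called higher at 1.001 and Exoc4 was not at 0.996. Slc5a9 was called lower at -1.002 and Pros1 was not at -0.999.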

How the data were processed

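One table per library was used, with a log2 value per gene symbol that the authors had deposited. Per the submitters' processing notes, Bowtie2, bedtools and mm10 were used; no source used here gives versions, annotation or normalization. The deposited log2 values, with 3 decimals, are log2(x + 1), where x lies on whole multiples of a step per library (1.08 in WT HDM, 0.939 in KO-labelled HDM). Division by the step gave reads: of genes with up to 200 reads, 95.1% to 98.9% came out whole within 0.1 read in the 4 libraries. Larger read numbers are approximate. Recovered reads gave exact conditional 95% intervals (Clopper-Pearson), and a count of 0 was taken to allow 3 reads. Reads without molecular identifiers are not independent molecules.

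Of 23282 rows, 79 rows of 35 symbols were dropped. The size rule was 2-fold. Named genes were the 15 highest and 15 lowest members, up to 4 with the largest differences in each of 48 lists, the 10 most abundant members, and Egr, Nab2, Artn, Krt2, Hox, cartilage and GDNF-family genes. Some genes under this rule are not reported here. Others were named as markers of a role or as contrasts, after their values had been seen. The members and lists were chosen with earlier results of these data known. Analyses used Python 3.11.15, numpy 2.4.6, pandas 2.3.3 and scipy 1.17.1, and the scripts were tested on simulated data.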

Additional observations from a re-analysis of the deposited data

Results flagged for a closer look

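Among the 30 extreme members and the EGR, NAB and Artn genes, 4 had opposite differences between KO-labelled and WT in the HDM and the naive pair, each with a counting interval wholly past 2-fold; the difference between the pairs was not tested. Rufy4 was lower in KO-labelled HDM by -4.82 on the log2 scale and higher in KO-labelled naive by 6.07, with 9 and 754 reads in naive skin and 469 and 18 under HDM, WT first. Clstn3 was higher under HDM (2.87) and lower in naive skin (-2.60), with 332, 61, 45 and 386 reads. Elovl3 was higher under HDM (2.17) and lower in naive skin (-1.87), with 3549, 1097, 874 and 4525 reads. Krtap6-5 was higher under HDM (2.51) and lower in naive skin (-3.40), where it had 9 and 0 reads. Of all members, 33 met this pattern, 23 of them higher under HDM, and 10 of the 33 had 0 reads in KO-labelled naive.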

How the results depend on the processing

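With 1 library a group, no replicate could be left out, no p-value exists, and no paired analysis was possible because no group has a second library. Counting error was the only error available, and genes below about 3 reads could not be compared. The counts of 175 higher and 243 lower members moved past 1.5 times under these settings. A filter at log2 6 gave 408 higher and 547 lower, and at log2 10 it gave 57 and 106. A value of 8 or more in both libraries gave 81 and 131. Any gene with 1 read in either library gave 1592 and 2291. A 4-fold rule gave 21 and 47. A counting interval wholly past 2-fold gave 110 higher. The remaining 7 alternatives for the higher count and 8 for the lower count stayed within 1.5 times. The 62 members lower in both pairs became 32 when genes at 0 reads in KO-labelled naive were left out, a choice made after seeing the data. Of 224 alternative list medians, 12 had the other sign, in 11 lists. In 11 of the 12 the median had been within 2-fold. Among these, sensory neuron transcripts went from 0.66 to -0.85, mast cell and basophil markers from 0.32 to -0.27 and the T cell list from 0.02 to -0.32 when any gene with 1 read counted. The salivary and lacrimal list, with a median of -1.06 over 2 members, gave 0.83 when the mean of both libraries had to reach log2 8, which left 1 member. Besides that value, 16 medians moved by more than 0.2, some of them named here. Of 105 alternative values of single genes, none reversed.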
